A study of Mus musculus with 2 samples.

Results

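The regions described here are the long footprints that were found in both thymus libraries. A footprint is a short stretch inside accessible chromatin where the nuclease DNase I cuts less than around it. Members were selected on the deposited intervals themselves: an autosomal footprint of at least 20 bp in one mouse had to overlap a footprint of at least 20 bp in the other by at least 50% of both lengths. The rule found 38059 pairs, 1 footprint from each mouse per pair. They made up 75.8% of the 50191 long autosomal footprints of mouse 1 and 51.0% of the 74659 of mouse 2. Both shares count the same pairs, so they differ only by the number of long footprints in each mouse. The 2 lists held 288103 and 339393 autosomal footprints of any length, which made 109708 pairs by the same overlap. Footprints of 8 to 12 bp paired by the same overlap, 13215 in number, served as the comparison. They made up 11.8% of the 111847 footprints of that length in mouse 1 and 10.9% of the 121690 in mouse 2. This class has an upper bound of length in both mice, which the long class lacks.

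The libraries came from thymus tissue of 2 female B6CASTF1/J mice aged 36 days, 1 DNase-seq library per animal. B6CASTF1/J animals are first-generation hybrids of C57BL/6J and CAST/EiJ, so each carries 1 chromosome set of either parent, whereas the sequences below come from the reference genome alone. The labels number the animals as biological replicates 1 and 2 (mouse 1 and mouse 2 here) and name them as separate females, although both share 1 donor entry. There is 1 group and no treatment, so no test over samples could be made. Values are given per mouse, and the intervals in parentheses are 95% exact (Clopper-Pearson) binomial intervals, which cover counting error only.

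Proteins that sit on DNA shield it from the nuclease, and the width of the protected stretch reflects how much DNA is covered. CTCF, an insulator protein that holds chromatin loops together with cohesin, contacts DNA with a long array of zinc fingers. NRF1, CREB and ATF factors, BANP and the SP and KLF family bind near the start sites of widely expressed genes, whereas RUNX, TCF-1, E proteins and GATA3 guide T-cell development. The thymus is the organ where T cells mature. Promoters of all 6 thymocyte markers examined (Cd3e, Cd4, Cd8a, Lck, Rag1, Ptcra) overlapped a peak in both mice, as did 1 of 3 B cell markers (Pax5) and 1 of 3 muscle markers (Ckm). None of 3 myeloid, 3 thymic epithelium or 3 neuron markers did, although 4 of the 12 genes on the longer myeloid list, 5 of 12 on the thymic epithelium list and 7 of 17 on the neuronal list had such a promoter.

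The sequences below show what such footprints cover. Each is the union of both mice's footprints plus 6 bp on either side, from the GRCm38 (mm10) reference, 5′ to 3′ on the strand given, with the match to the named motif in capitals. For each motif the pair shown had the highest peak signal among pairs with a match whose edges each differed by at most 1 bp between the mice. For BANP the strongest such pair lay in an untranslated region, so the strongest outside untranslated regions is shown.

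CTCF, 178 bp from a start site of Wrb, chr16:96145198-96145260, - strand: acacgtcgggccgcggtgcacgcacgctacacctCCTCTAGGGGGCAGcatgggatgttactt

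NRF1, 54 bp from a start site of Snrnp70, chr7:45395774-45395818, + strand: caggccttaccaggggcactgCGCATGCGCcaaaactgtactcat

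CREB, 359 bp from a start site of Mxd1, chr6:86669502-86669539, + strand: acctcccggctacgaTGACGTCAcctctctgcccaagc

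BANP, 110 bp from a start site of Smarcd2, chr11:106273064-106273100, - strand: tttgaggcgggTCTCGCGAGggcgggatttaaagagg

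RFX, 6119 bp from the nearest start site, that of Cirbp, chr10:80159850-80159884, - strand: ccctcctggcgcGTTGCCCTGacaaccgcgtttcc

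ZNF143, 55 bp from a start site of Ero1lb, chr13:12565796-12565842, + strand: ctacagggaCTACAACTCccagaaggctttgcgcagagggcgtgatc

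At the NRF1 site of Snrnp70, which encodes a protein of the U1 spliceosome particle, both mice gave the same 33 bp. At the CREB site of Mxd1, a partner of MAX, both gave the same 26 bp. The CTCF site near Wrb measured 50 bp in mouse 1 and 51 bp in mouse 2. The BANP site of Smarcd2, a subunit of a chromatin remodelling complex, measured 25 and 24 bp. The peak signal is the height that the authors deposited per peak. In each library every value was a whole multiple of 1 step, to within 0.1 steps, of 0.00638 in mouse 1 and 0.00504 in mouse 2. The sources used here do not name its scale, and the number of reads behind each footprint is unknown. The median host peak of a member stood at 683 steps in mouse 1 and 1837 in mouse 2, against 358 and 612 for short shared footprints.

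**Figure D1:**
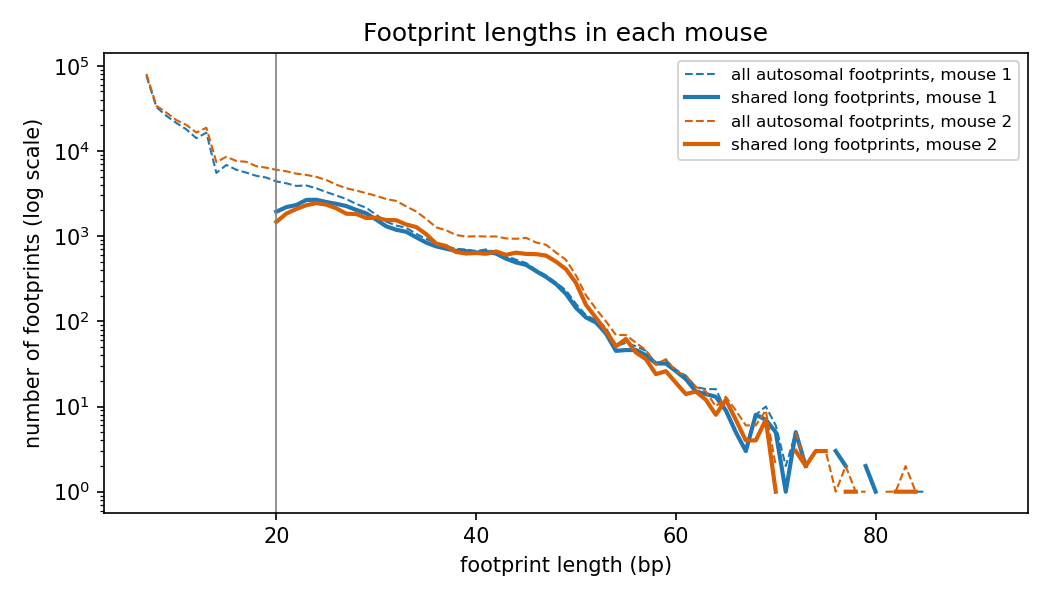
Number of footprints (vertical axis, log scale) against length in bp for all autosomal footprints (dashed) and for the shared long footprints (solid) of each mouse, with the minimum of 20 bp as a grey line. Counts broadly fall with length up to about 38 bp and then stay nearly level, at 649 footprints of 42 bp in mouse 1 and 991 in mouse 2, before they fall again.

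Length chose the members, so their lengths are a description. The median was 28 bp in mouse 1 (quartiles 24 and 34) and 29 bp in mouse 2 (24 and 36), where the median of all autosomal footprints was 10 and 11 bp. Both maxima among members were 84 bp. A shoulder was present at 38 to 50 bp, the class of 15.5% of members by mean length. Near the length threshold, 6437 pairs had both footprints at 18 bp or more and at least 1 under 20 bp, and 6310 members had a footprint of 20 or 21 bp. Near the overlap threshold, 1030 long pairs overlapped by 40% to 50% and 2242 members by 50% to 60%.

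Both edges of a member were identical in the 2 mice in 6.00% of pairs, within 1 bp in 24.1% and within 3 bp in 54.8%. The larger of the 2 edge distances had a median of 3 bp. Edges of short shared footprints lay closer: identical in 9.44%, within 1 bp in 31.5% and within 3 bp in 76.3%, with a median of 2 bp. The overlap rule itself limits how far edges can differ, and it allows fewer bases in short footprints. Its part in these shares was not tested. Members were longer in mouse 2 in 50.8% of pairs and longer in mouse 1 in 37.7%. Long footprints that had no partner were often present in shorter form: in mouse 2, 13.6% of mouse 1's long footprints met 1 shorter footprint and 4.04% met 2 or more, while 4.08% met none. In the other direction 21.8% met 1 shorter footprint, 9.18% met 2 or more and 16.3% met none. Mouse 2, with the finer step, thus held most of the long footprints without a partner, and the part of depth in this was not tested.

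**Figure D2:**
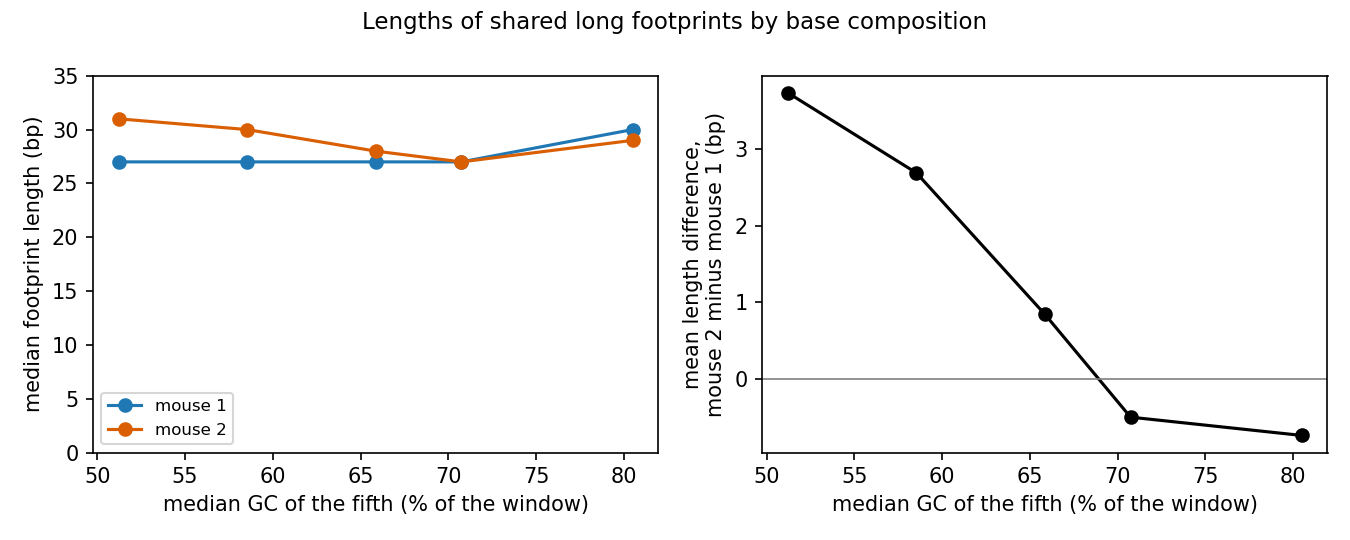
Shared long footprints in 5 groups of nearly equal size by the GC content of the window around them. Left, the median length in each mouse; right, the mean of the length in mouse 2 minus the length in mouse 1, from 3.73 bp in the group of lowest GC to -0.73 bp in the highest.

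Which mouse had the longer footprint varied with base composition. Members were put into 5 groups of nearly equal size by GC content of the 41 bp window. In the lowest group (median GC 51.2%), the median lengths were 27 bp in mouse 1 and 31 bp in mouse 2, and 66.2% of footprints were longer in mouse 2. In the highest group (median GC 80.5%) they were 30 and 29 bp, and 38.5% were longer in mouse 2. The mean difference in length, mouse 2 minus mouse 1, went through 3.73, 2.69, 0.85, -0.49 and -0.73 bp from the lowest to the highest group. The ratio of peak signals ran the other way. The median log2 ratio, mouse 2 over mouse 1, rose through 0.78, 1.09, 1.20, 1.33 and 1.53 from the lowest to the highest group. Promoter share moved with the groups too, from 41.7% to 93.4%. Split by position, a step chosen after these values were seen, the mean difference went from 3.18 bp in the lowest group to -0.81 bp in the highest at promoters, and from 4.13 to 0.36 bp outside them.

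Long shared footprints lay closer to start sites than short ones. Of the members, 66.4% (65.9% to 66.9%) were centred at most 1000 bp from an annotated start site, against 54.6% (53.8% to 55.5%) of short shared footprints. The share was higher for members on 19 of 19 autosomes. Taking each mouse's footprints whether shared or not, it was 64.9% for long and 46.0% for short footprints in mouse 1, and 56.3% and 45.7% in mouse 2. Within 100 bp of a start site lay 39.99% of members and 25.8% of short ones. The median distance to the nearest start site was 175 bp for members and 603 bp for short ones. Introns held 15.2% of members and 23.5% of short ones, exons 2.70% and 3.57%, and intergenic sequence 15.7% and 18.2%.

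Members also sat in stronger peaks and richer GC. A peak of both mice covered the centre of 76.8% of members and of 54.1% of short shared footprints. For 8.76% of members and 22.4% of short ones, no peak of either mouse did. The median signal of the host peak was 4.36 in mouse 1 and 9.25 in mouse 2 for members, and 2.28 and 3.08 for short ones, a difference of the same direction on 19 of 19 autosomes in either mouse. These medians cover only footprints centred in a peak of that mouse, 83.7% and 84.4% of members and 67.1% and 64.7% of short ones. The FDR of the local cut rate, which the authors computed and deposited, had a median -log10 of 33.7 and 71.4 at the centres of members and of 13.8 and 21.1 at those of short ones. Mean GC of the window was 65.4% for members and 59.1% for short ones. A peak with at least 1 member made up 35.7% of the autosomal peaks of mouse 1 and 30.7% of those of mouse 2, and a single peak held up to 10 and 8 members.

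The 10 longest by mean length included pairs within 1000 bp of start sites of Cdyl, Dcaf7, Zbtb7a, Ppia, Zmynd8, Maz and Pdcl3. Another of the 10 lay between genes 43128 bp from the nearest start site, that of Gm11403, in sequence that repeats AGACC. It measured 73 bp in mouse 1 and 75 bp in mouse 2, with peak signals of 1.30 and 2.08. Cdyl, a chromatin reader, had the longest at 80 bp in mouse 1 and 84 bp in mouse 2. At Dcaf7, which encodes a WD40 repeat protein, the lengths were 79 and 78 bp. At Zbtb7a, a zinc finger repressor, both mice gave 77 bp, and at Maz, a zinc finger protein of GC-rich promoters, both gave 72 bp. The centre of the Cdyl pair lay in no peak of mouse 2, that of Zbtb7a in none of mouse 1, and that of Maz in none of either. The sequences of the longest and the next longest pair follow; no motif is marked.

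Cdyl, chr13:35741205-35741300, + strand: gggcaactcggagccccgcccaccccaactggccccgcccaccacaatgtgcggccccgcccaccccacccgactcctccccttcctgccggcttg

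Dcaf7, chr11:106036654-106036744, + strand: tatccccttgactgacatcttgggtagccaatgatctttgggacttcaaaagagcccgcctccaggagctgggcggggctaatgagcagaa

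**Figure D3:**
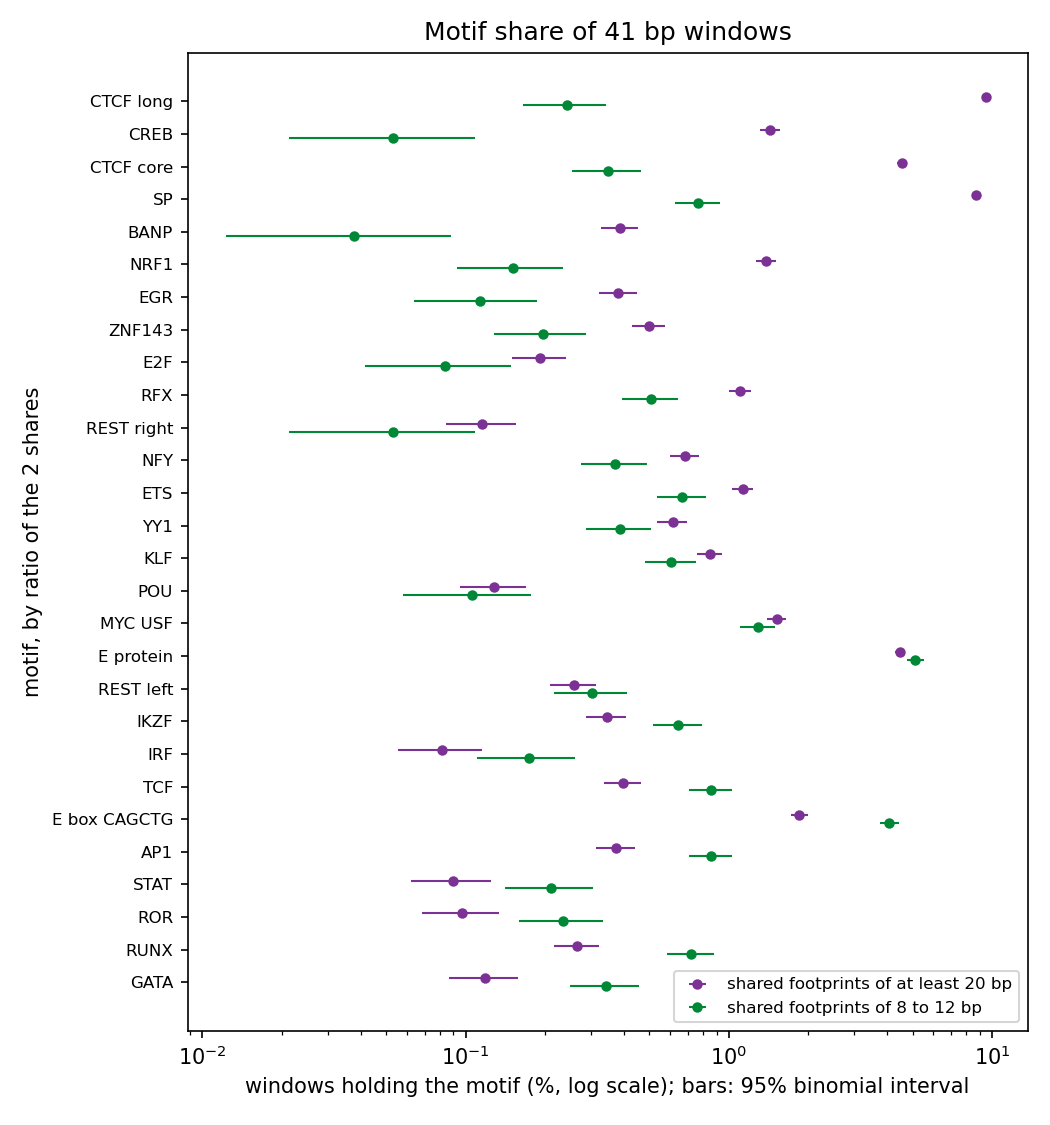
Share of 41 bp windows (horizontal axis, percent, log scale) that hold each motif, around shared footprints of at least 20 bp and of 8 to 12 bp; bars are 95% exact binomial intervals. CTCF, CREB, SP and BANP lie far to the right for long footprints, and RUNX, ROR, STAT, AP1 and GATA lie to the left.

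To see what the members share that the rule did not use, 35 consensus motifs were looked for on both strands in windows of 41 bp centred on the footprints, the same length for both classes. A match describes letters and is not a proven binding site. At least 1 motif was found in 35.2% of member windows and 18.3% of short windows. The longer CTCF consensus, which has ambiguity letters, was in 9.48% of member windows (9.19% to 9.78%) and 0.242% of short ones (0.166% to 0.342%), a ratio of 39.2. In windows of equal length 80 bp away it was in 0.469% and 0.946%. Its shorter core AGGNGGCGC was in 4.56% and 0.348%. For footprints of each mouse, shared or not, the longer consensus was in 7.61% of long and 0.815% of short windows in mouse 1, and in 9.20% and 0.519% in mouse 2.

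Several motifs of promoter factors were also more frequent around members. CREB's TGACGTCA was in 1.44% of member windows and 0.0530% of short ones, 27.1 times as often. The GC box GGGGCGGGG of SP factors was in 8.70% and 0.764%, and BANP's TCTCGCGAG in 0.386% and 0.0378%. NRF1's CGCATGCGC was in 1.39% and 0.151%, and the RFX word GTTGCCNNG in 1.11% and 0.507%. CTCF, CREB, SP and NRF1 were more frequent around members on 19 of 19 autosomes, BANP on 18 and RFX on 17. The GC box is the same word read backwards, so the backwards control has no meaning for it, whereas NRF1 written backwards was in 0.00788% of member windows. The backwards NRF1 word holds more CG pairs than the forward one, so this control is not matched to it.

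Motifs of the T-cell programme were less frequent around members, whose windows are also richer in GC. AGATAAG of GATA factors was in 0.118% of member windows and 0.341% of short ones, TGTGGTTT of RUNX in 0.265% and 0.719%, and ATCAAAG of TCF-1 in 0.397% and 0.855%. The E box CAGCTG was in 1.85% and 4.08%, lower around members on 19 of 19 autosomes. CACCTG was in 4.47% and 5.12%, but in 8.60% and 7.04% outside promoters, and in 4.89% of long and 4.92% of short footprints in mouse 2, so its direction depends on the sites taken. The words of GATA, RUNX and TCF-1 and CAGCTG were less frequent around members both at promoters and outside them. As a control of base composition, the RUNX word written backwards was in 0.0315% and 0.106% and the GATA word backwards in 0.0893% and 0.166%. The TCF-1 word backwards was in 0.200% and 0.204%, and CAGCTG backwards in 0.181% and 0.159%. CAGCTG backwards is GTCGAC, which holds a CG pair that CAGCTG lacks. Member windows held more CG pairs (mean 3.10 against 2.08), so this control is not matched to CAGCTG. In windows 80 bp away all 4 of these T-lineage words were also less frequent beside members than beside short footprints. RUNX stood there at 0.248% and 0.424%, TCF-1 at 0.348% and 0.507%, GATA at 0.226% and 0.325%, and CAGCTG at 2.42% and 3.10%. Around members the RUNX and TCF-1 words were thus no rarer than in these flanks. The part of base composition in the lower GATA, RUNX, TCF-1 and CAGCTG shares was not tested further. The other motifs with the lowest ratios were TAGGTCA of ROR at 0.0972% and 0.235%, TTCCNGGAA of STAT at 0.0893% and 0.212%, and TGANTCA of AP-1 at 0.373% and 0.855%. Any of the 7 T-lineage motifs occurred in 7.37% of member windows and 11.4% of short ones. A single T-lineage site shows that members can hold such motifs: the GATA pair with the highest signal lay between genes 7066 bp from a start site of Trac, the constant segment of the T-cell receptor alpha chain, and measured 28 bp in both mice. It also holds the MYC and USF word, and its peak signal was 27.98 in mouse 1 and 27.81 in mouse 2.

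GATA, nearest gene Trac, chr14:54227568-54227607, + strand: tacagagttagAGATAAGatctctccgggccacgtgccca

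Counting every word of 8 letters with its reverse complement gave a like picture. CCCCGCCC was in 13.4% of member windows and 1.57% of short ones, the largest difference of any word. GCCCCGCC followed at 11.6% and 1.03%, and CCCGCCCC at 11.5% and 1.67%. AGGGGGCG and CAGGGGGC, which are part of many CTCF consensus matches, were in 6.05% and 0.484% and in 4.14% and 0.318%. On the other side, CAGGAAGC was in 0.397% of member windows and 1.04% of short ones, and ACAGGAAG in 0.410% and 1.03%. A run of at least 5 G or 5 C occurred in 31.7% of member windows and 14.1% of short ones.

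**Figure D4:**
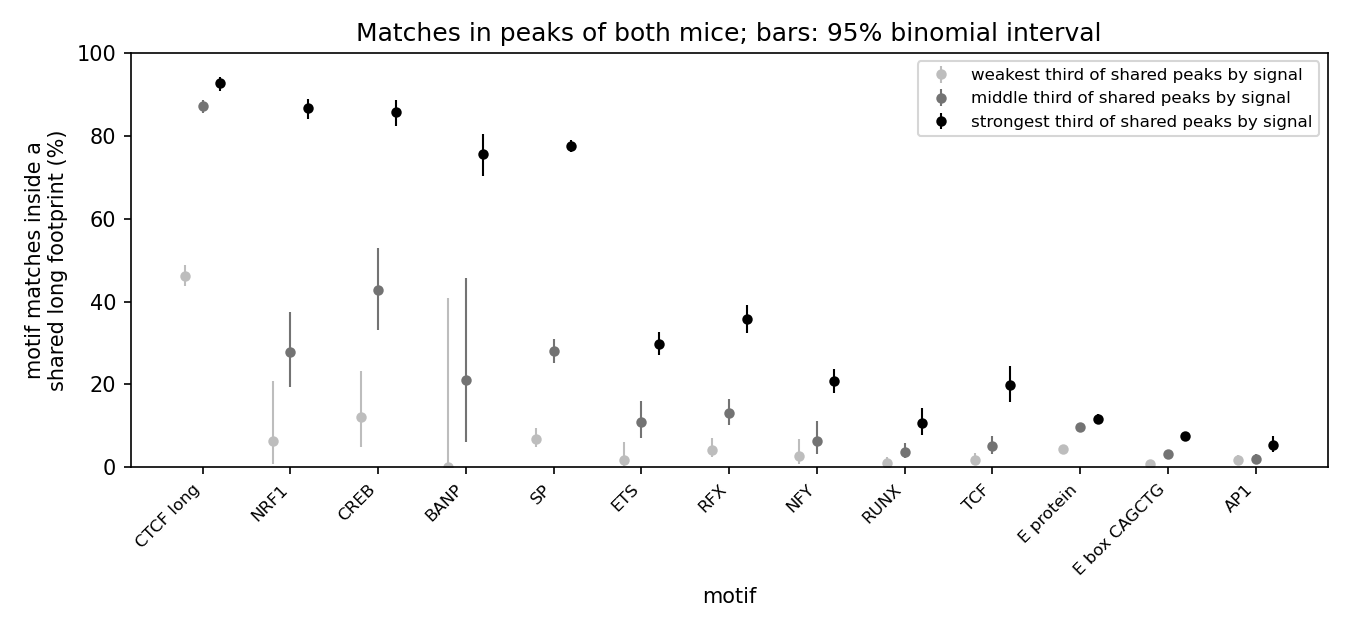
Share of motif matches (vertical axis, percent) that lie inside a shared long footprint, among matches in peaks of both mice, split into 3 groups of those peaks of equal number by signal; bars are 95% exact binomial intervals. CTCF reaches 46.2% in the weakest group, where the other motifs with at least 100 matches stay under 7%.

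The question was then turned round: of all matches inside peaks of both mice, how many lay in a member? Members covered 9.47% of the 8620076 bases of such peaks. They held 77.6% (74.8% to 80.2%) of the 938 NRF1 matches, 73.9% (72.5% to 75.2%) of the 4177 CTCF matches, 72.3% of the 653 CREB matches, 70.7% of the 321 BANP matches and 59.8% of the 4633 GC boxes. The shares were 24.7% for the ETS word CCGGAAGT, 22.0% for RFX, 15.99% for the NF-Y word CCAATCAG, 7.98% for TCF-1, 4.70% for RUNX and 3.96% for CAGCTG. RUNX and CAGCTG matches were thus in members less often than the bases of these peaks. Of the RUNX matches 60.5% lay in no footprint of either mouse, and of the TCF-1 matches 33.0%. CTCF differed between the mice: 95.5% of its matches lay in a long footprint of mouse 2 and 76.0% in a long footprint of mouse 1, where a further 10.6% lay in one of 13 to 19 bp. For CTCF and NRF1 the share in no footprint of either mouse was 1.15% and 2.35%.

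Peak strength separated CTCF from the other motifs. Shared peaks were put into 3 groups of equal number by signal. In the weakest group 46.2% (43.6% to 48.8%) of 1485 CTCF matches lay in a member, and in the strongest group 92.8% did. NRF1 went from 6.25% of 32 matches to 86.7% of 805, CREB from 12.1% of 58 to 85.7% of 490, and SP from 6.85% of 482 to 77.6% of 3175. RUNX stood at 0.922% in the weakest group and 10.7% in the strongest, and CAGCTG at 0.888% and 7.47%.

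The members with the longer CTCF consensus lay mostly away from start sites. Of these 3609 members, 22.1% lay within 1000 bp of a start site, against 71.1% of the members without it, and 34.0% lay in introns and 37.8% between genes. The 101 members with a RUNX match lay likewise mostly away from start sites, with 24.8% near one, 36.6% in introns and 32.7% between genes. The CTCF members' host peaks were weaker, with a median signal of 1.19 in mouse 1 and 2.98 in mouse 2, against 4.92 and 10.7 for the members without it. Their median lengths were 29 and 33 bp. By mean length the share of members with the consensus was 1.55% at 20 to 25 bp, 9.84% at 25 to 30 bp, 14.6% at 30 to 38 bp, 13.8% at 38 to 50 bp and 6.34% from 50 bp on (each class without its upper bound). The GC box had another profile, from 6.44% at 30 to 38 bp to 17.6% from 50 bp on. NRF1 and BANP members were nearly all at promoters, 91.1% and 98.6%, with BANP at a median of 33 bp from the start site.

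**Figure D5:**
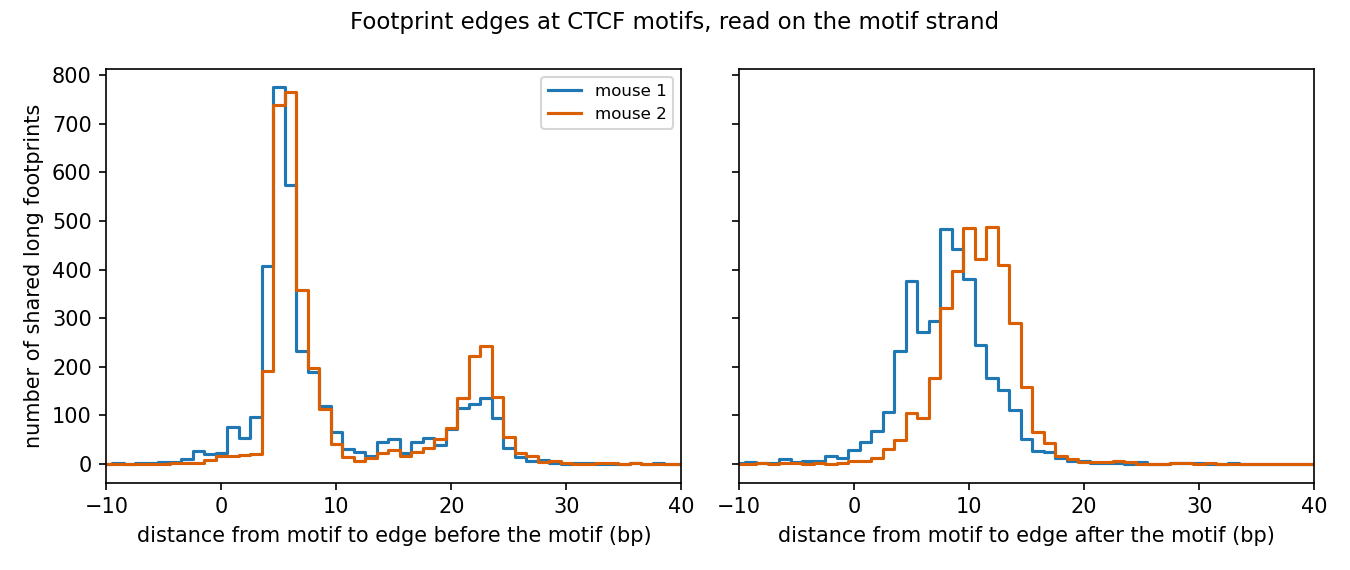
Number of shared long footprints with a CTCF match (vertical axis) by the distance in bp from the motif to the footprint edge before it (left) and after it (right), on the motif strand, in each mouse. The edge before the motif has 1 group at about 5 bp and another at about 22 bp; the edge after it lies further out in mouse 2.

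Read on the strand of the CTCF consensus, footprint edges gathered at certain distances, which differed in part between the mice. The edge before the motif was most often 5 bp away in mouse 1 and 6 bp in mouse 2, with another group of edges that was highest at 23 bp in both mice. The edge after the motif had a median distance of 8 bp in mouse 1 and 11 bp in mouse 2, and lay further out in mouse 2 at 73.2% of the sites. Classes for the edge before the motif, near (0 to 12 bp) and far (16 to 28 bp), were chosen after these values were seen. It was near in both mice at 2265 sites (62.8%), far in both at 614, near in mouse 1 and far in mouse 2 at 356, and the reverse at 125. Far sites measured a median of 43 bp in mouse 1 and 46.5 bp in mouse 2, near sites 28 and 31 bp. The signal was 1.58 and 4.37 in the host peaks of far sites and 1.14 and 2.80 in those of near sites.

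The bases before the motif, which neither the rule nor the consensus used, differed between these classes. At 10 bp before the first base of the motif the far sites had C in 74.3% and the near sites in 33.5%. At 12 bp before it they had T in 74.6% and 36.7%, and at 16 bp before it G in 70.8% and 30.2%. The 8 positions with the largest differences all lay 9 to 17 bp before the motif and spell TGCAGTNCC. As background, some CTCF sites are known to carry an upstream element that the last zinc fingers contact. The looser word TGCANTNCC at that place was in 79 of the 614 far sites, 12.9% (10.3% to 15.8%), and in 2 of the 2265 near sites, 0.0883% (0.0107% to 0.319%). The word was spelled from these same sites, so this contrast is a description of them. At all 108 sites with the word, the edge before the motif was far in 73.1% in mouse 1 and 97.2% in mouse 2, and the median lengths were 40 and 46 bp. At the 3501 sites without it, the edge was far in 19.4% and 26.5%, and the lengths were 29 and 33 bp. The sequences that follow are 2 near sites without the word and 2 far sites with it; the consensus is in capitals, and in the last 2 also the word.

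Near, in an intron 156 bp from a start site of Nabp2, chr10:128410007-128410054, + strand: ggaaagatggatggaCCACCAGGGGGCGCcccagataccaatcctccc

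Near, between genes 1252 bp from a start site of Ptma, chr1:86525450-86525499, - strand: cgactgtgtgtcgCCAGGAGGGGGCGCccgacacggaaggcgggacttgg

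Far, between genes 24945 bp from a start site of Ptma, chr1:86501752-86501812, + strand: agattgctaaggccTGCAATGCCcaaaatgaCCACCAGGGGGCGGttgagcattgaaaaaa

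Far, in an intron 7 bp from a start site of Gm33533, chr1:36744771-36744828, - strand: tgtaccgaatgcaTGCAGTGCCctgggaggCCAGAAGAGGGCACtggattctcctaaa

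At Nabp2, a single-stranded DNA binding protein, the footprint was the same 36 bp in both mice. The near site 1252 bp from Ptma (prothymosin alpha) measured 38 bp in mouse 1 and 37 bp in mouse 2. The far site 24945 bp from a start site of Ptma measured 48 and 49 bp, and that of Gm33533 45 and 46 bp.

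Other motifs had edge positions of their own. CREB footprints began a median of 8 bp before the motif and ended 9 bp after it in both mice. NRF1 edges lay a median of 8 bp out on either side in mouse 1 and 7 and 8 bp in mouse 2, and the whole motif was inside in 98.5% and 98.7%. ZNF143 members were lopsided: the footprint began a median of 3 bp before CTACAANTC in mouse 1 and 2 bp in mouse 2, and ended 20.5 and 20 bp after it. The whole ZNF143 word was inside in only 55.3% and 53.7%. RFX members began 6 bp before GTTGCCNNG and ended 10 bp after it in both mice. CAGCTG was likewise wholly inside its footprint in only 51.6% and 53.8% of the 705 members whose window held it. TGANTCA of AP-1 was wholly inside in 30.99% and 42.96% of 142. Windows of fixed length can hold a motif beside the footprint as well as in it.

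The whole element of REST, the repressor of neuronal genes, was in 3 member windows (0.00788%) and in 0 of 13215 short ones. The exact interval of the short share reaches 0.0279%, above the member share, so no difference between the classes is shown. These 3 were singled out after their values were seen, since they are all there are. They lay in an intron 260 bp from a start site of Chga (chromogranin A), in an intron 2334 bp from a start site of Gad1, which encodes an enzyme of GABA synthesis, and in an intron 3216 bp from that of Gm18405. Chga measured 32 bp in mouse 1 and 29 bp in mouse 2, Gad1 27 and 33 bp, and the site near Gm18405 29 and 31 bp. All 3 peaks were weak, with signals of 0.472 to 1.25 in mouse 1 and 1.65 to 3.81 in mouse 2. The element is in capitals.

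Chga, chr12:102555223-102555268, + strand: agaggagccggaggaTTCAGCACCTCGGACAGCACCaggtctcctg

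Gad1, chr2:70559686-70559730, - strand: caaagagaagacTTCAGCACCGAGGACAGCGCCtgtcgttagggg

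Nearest Gm18405, chr12:108994845-108994891, - strand: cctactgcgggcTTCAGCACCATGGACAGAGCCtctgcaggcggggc

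By gene, 9696 of 20807 autosomal protein-coding genes (46.6%) had a member within 1000 bp of a start site, and 5222 (25.1%) had a short shared footprint there. Among the 11929 genes whose promoter overlapped a peak in both mice, 81.0% had a member and 43.4% a short one. The 10 genes with most members in the body and the 1000 bp before it were Gm20388 with 261, Fgfr2 with 49, Gse1 with 40, Ppp2r3d with 36, Ccnd3 with 27, Camta1 and Cx3cr1 with 24, Samd4b and Sept9 with 23, and Cic with 21. Gm20388 and Fgfr2 span 4435 and 2961 kb in the annotation and run over many other genes. Fgfr2 and Cx3cr1 had no member at a start site of their own. Counting only members within 1000 bp of any start site of the gene, the order differed: Ppp2r3d had 29 members, Cic, a transcriptional repressor, 21, and Plec, a cytoskeletal linker, 20.

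Gene lists of the thymus were uneven. The counts are read beside the 81.0% of all promoters with a peak in both mice that had a member. Of 20 thymocyte transcription factors, all with such a promoter, 19 had a member at a start site, with a median of 3. Satb1, a chromatin organiser of thymocytes, had 8, and Tcf7, which encodes TCF-1, had 5. Tcf3, which encodes E proteins, Foxo1 and Notch1 also had 5 each, and Lef1 had 4. Runx3 had none at a start site and 3 in its body. At Tcf3 the longest member was 39 bp in both mice, and at Tox, a regulator of CD4 T-cell development, 53 bp in mouse 1 and 51 bp in mouse 2.

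Of 20 genes for the T-cell receptor complex and its signalling, 10 had a member at a start site, although all 20 promoters overlapped a peak in both mice. Cd8b1, a chain of the CD8 coreceptor, had 4, Cd2 had 3, and Cd247 and Lck, the CD3 zeta chain and a kinase, had 2. Among those with none there were Cd3e, Cd4, Cd5, Cd28, Zap70, Lcp2, Themis, Ptprc and Cd27. In their bodies Cd4 and Ptprc had 2, and Lcp2 and Themis 1. Of the 14 genes for receptor gene rearrangement and the pre-TCR, 10 had a member at a start site. Rag1, Dntt, Ptcra and Il7r had none there, and Dntt had 2 in its body. Lig4 and Xrcc6, which repair DNA breaks in all cells, had 6 and 5. So 10 of 20 T-cell receptor promoters with a peak in both mice had a member, beside 81.0% of all such promoters. A short shared footprint was present at 12 of the 20, beside 43.4% of all such promoters.

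Most widely expressed genes on the lists had members, and all their promoters overlapped a peak in both mice, the class in which 81.0% of genes had one. All 14 autosomal housekeeping genes of the list had one, with a median of 4: Ywhaz had 11, Actb 7, and Rpl13a and Tubb5 6 each. At Rplp0, a ribosomal stalk protein, the longest was 64 bp in both mice and held a CTCF match. All 15 mitochondrial genes had one, with a median of 3, and the members of Cox6c and Uqcrc1 included an NRF1 match. All 10 genes for CTCF and cohesin had one, with 5 each at Smc3, Rad21 and Nipbl. Of 18 cilium genes 16 did, or 88.9%, near the share of all such promoters, and RFX matches were present in members of Ift57, Bbs2, Dync2li1 and Rfx2; Ift88 and Bbs1 had none.

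Most genes of other tissues had no promoter peak in both mice. A member was present at 3 of 17 neuronal genes (Chga, Vgf and Celsr3), 3 of 12 B cell genes (Pax5, Ebf1 and Vpreb1), 2 of 12 myeloid and dendritic genes (Cebpa and Itgam), 3 of 12 thymic epithelium genes (Aire, Ccl25 and Cldn4) and 1 of 12 muscle genes (Ckm, with 5). Among the promoters with a peak in both mice these were 3 of 7, 3 of 5, 2 of 4, 3 of 5 and 1 of 1. None of 16 protocadherin genes had one, and 2 of those promoters overlapped a peak in both mice. Aire, which drives tissue antigens in thymic epithelium, had 2 members, the longest 47 bp in mouse 1 and 48 bp in mouse 2, and a CTCF match. In bulk tissue fewer cells of a type and less accessibility per cell cannot be told apart.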

How the data were processed

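DNase-seq libraries of thymus from 2 mice (1 group) were used, as mm10 intervals per the labels. Footprints, 2 peak lists and the local cut rate of each library came as the authors deposited them. The aligner and the callers are not named in the sources used here. The peak signal is a height as the authors deposited it, and the FDR of the cut rate was computed by the authors and deposited below 0.05. The shorter peak list was used. Of the footprint lists only the positions entered, since their value column is constant.

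Footprints were paired with Python 3.11.15 and numpy 2.4.6, and the number of pairs was the same with bedtools. Pairing and the motif search were checked on simulated data. Windows of 41 bp were centred on the mean centre of a pair. Sequence came from the RefSeq copy of GRCm38, and genes from GENCODE vM21. Each of 35 motifs was matched exactly, on both strands. Shared peaks are the stretches of overlap between the mice's peaks.

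The members, motifs and 13 gene lists were chosen with earlier results of these data known. Named are the 10 longest pairs, the 10 genes with most members, the strongest pair with tight edges per motif, list members with a footprint at a start site, and the 5 highest and 5 lowest motifs among those in at least 20 windows. The words named are from those of 8 letters with the largest difference. List genes without a footprint, the 3 REST pairs, the CTCF pairs by edge class and genes with most members at start sites were named after their values were seen. Alternatives for overlap, length, window, promoter distance, peak list and matched signal or GC were run. The X chromosome entered only as an alternative. Some items under these rules are not reported here.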

Additional observations from a re-analysis of the deposited data

How the results depend on the processing

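Of 78 alternatives to 7 results, 56 moved the value by less than the spread between the mice (or a count by less than 1.5 times), 22 by more, and 0 reversed the direction. The number of pairs was 22457 with a minimum of 25 bp. The ratio of median peak signal, 2.35 for long over short, was 2.54 with any overlap of at least 1 bp, 2.15 with a minimum of 16 bp and 2.87 with the longer peak list. The CTCF difference of 9.24 percentage points was 12.7 with a minimum of 25 bp, 7.46 with 16 bp, 3.05 at promoters, 21.6 outside them and 0.0108 with the motif backwards. The NRF1 difference of 1.24 points was 1.02 with 16 bp, 1.67 at promoters, 0.318 outside them and 0.000315 backwards. The RFX difference of 0.602 points was 0.830 with 80% overlap, 0.421 outside promoters and 0.0923 backwards. Backwards motifs were run as controls of base composition. The CTCF, NRF1 and RFX words each gain a fixed CG pair when reversed, so these controls are not matched to them. The cause of the other shifts was not tested.

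Taking a single mouse's footprints, shared or not, leaving out the other replicate, gave 50191 (mouse 1) and 74659 (mouse 2) long footprints. The promoter difference was 10.6 to 18.9 points, the signal ratio 2.41 to 2.61, the CTCF difference 6.80 to 8.68, the NRF1 difference 0.749 to 1.05 and the RFX difference 0.317 to 0.524. The GC difference of 6.33 points stayed within the spread in 12 of 12 alternatives. The spread is the SD of the 2 single-mouse values, which are themselves among the alternatives. For GC these values were 7.36 points in mouse 1 and 4.01 in mouse 2, and the spread of 2.37 points is wide beside the difference. Long and short footprints come from the same 2 mice, and these differences had the same direction in both; with 2 mice no test over samples was made, and reads per footprint are unknown.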
